A study of Gallus gallus with 8 samples.

Results

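The genes described here are the Wnt ligands, their receptors and the secreted or membrane proteins that modulate them, measured in cells of the chick neural tube sorted by a BMP reporter. Members were taken by their symbol in the deposited table: WNT, FZD, SFRP, RSPO and DKK genes followed by a number, together with FRZB, WIF1, NOTUM, APCDD1, LRP5, LRP6, ROR1, ROR2, RYK and KREMEN1. This gave 45 of 13249 measured genes: 16 ligands, 10 frizzled receptors, 4 co-receptors or alternative receptors, 3 R-spondins and 12 inhibitors. Each gene is represented by its probe set (a group of array probes read as 1 value) with the highest mean over the arrays. No row carried the symbol LRP5. WNT1, LRP5 and a probe set group named FZ-8 in the table, FZD5 by its gene ID, are recognisable only by gene ID and are given beside the members.

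BRE_active cells carried both plasmids and had switched on pBRE-tk-EGFP, in which a BMP-responsive element drives green fluorescence. BRE_inactive cells carried the red marker pCAGGS-IRES-H2B-RFP without green fluorescence and came from the same embryos. All embryos were white Leghorn chickens electroporated at trunk level at Hamburger and Hamilton stages 10 to 11 and collected 24 h later, nearly 30 embryos to a pool, with 4 pools and so 4 arrays in each group. Each pool gave at least 100000 red and at least 20000 green cells. Because embryos were pooled, the spread between arrays is that between pools, and in such bulk RNA fewer cells of a type and less RNA per cell cannot be told apart.

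Wnt proteins are secreted lipid-modified signals. They bind frizzled receptors, and with LRP5 or LRP6 as co-receptor they stabilise beta-catenin, which then acts with TCF and LEF factors on target genes, while binding to ROR or RYK receptors can lead to responses without beta-catenin. R-spondins raise the amount of frizzled at the cell surface, and SFRP, WIF1, DKK and NOTUM proteins limit the signal outside the cell. In the dorsal neural tube WNT1 and WNT3A are classical signals of the roof plate region, where neural crest cells arise.

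Of the 45 genes, 8 rose, 1 fell and 36 were not called in BRE_active relative to BRE_inactive cells by limma (adjusted p under 0.05 over all 38439 probe sets). The background in the same fit was 2.21% of all 13249 genes called, with 1.55% higher and 0.657% lower. The genes that rose were a ligand (WNT9A), 2 frizzled receptors (FZD4 and FZD10), the receptor tyrosine kinase ROR1, the R-spondin RSPO3 and 3 inhibitors (NOTUM, APCDD1 and FRZB), and the gene that fell was the inhibitor SFRP1. When limma also had a term for the pool, so that the 2 fractions of 1 set of embryos were compared with each other (the block), 11 were higher and 2 lower. In that fit 7.46% of all genes were called, with 4.91% higher and 2.55% lower. The block added WNT3A, FZD6 and DKK1 on the higher side and FZD7 on the lower side. The DKK1 probe set, whose gene ID RefSeq now names DKK4, was present on no array by the deposited detection letters. The median difference of the 45 genes was 0.04 on the log2 scale, against -0.02 over all genes, and the median absolute difference was 0.23, against 0.13. The values of the 2 groups did not overlap for 10 genes that were higher and 4 that were lower, while 8.97% of all genes were so separated, 4.88% higher and 4.09% lower. Within pools, 14 of the 45 were higher in BRE_active in all 4 and 6 were lower in all 4. Of all 13249 genes, 2060 were higher and 2275 lower in all 4, together 32.7%. Of the 15 members that the deposited detection letters called present on all 8 arrays, 5 were called without the block and 7 with it, against 3.42% and 11.7% of the 6114 genes so detected. Another 14 were present on 1 to 7 arrays and 16 on none.

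**Figure D1:**
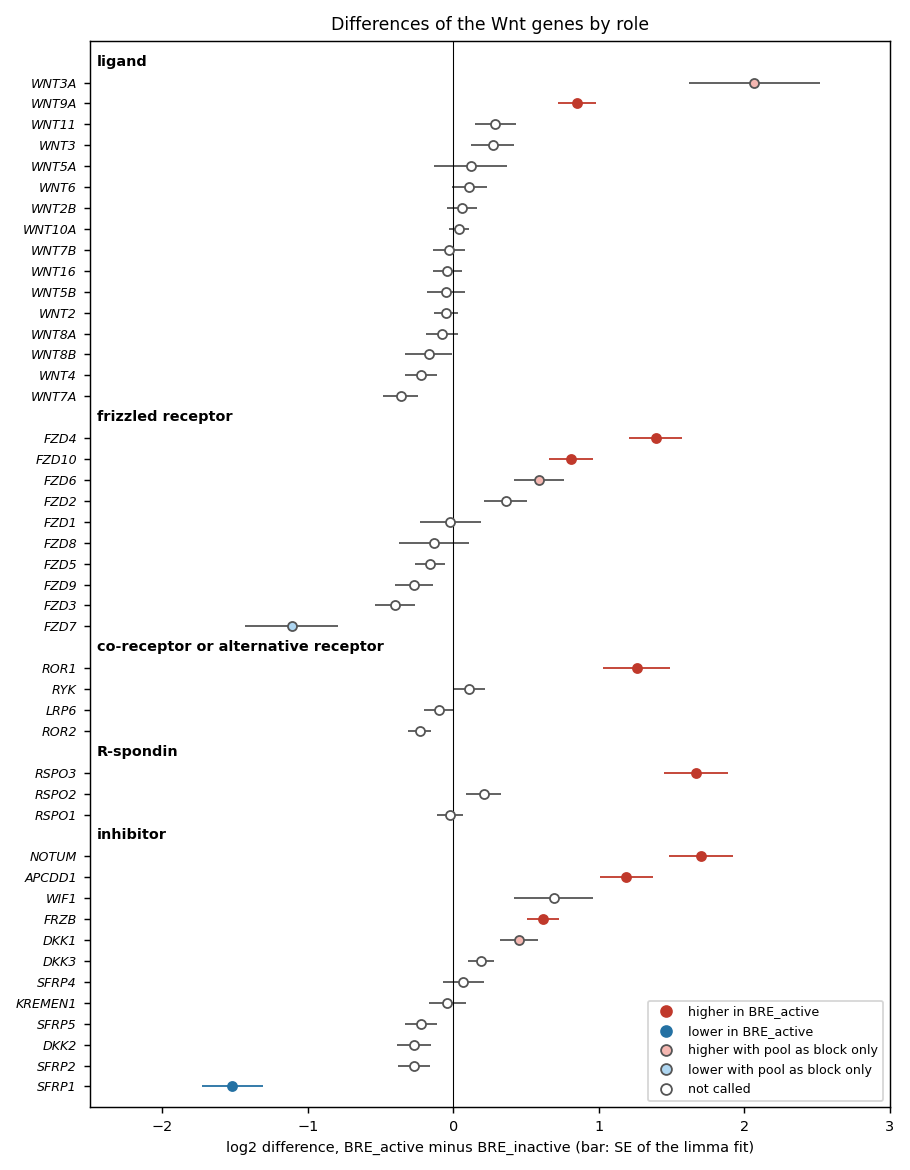
Log2 difference, BRE_active minus BRE_inactive (x axis), of the 45 genes, grouped by role (y axis). Points are differences of group means (4 arrays each) and bars the SE of the limma fit. Dark red points passed the test as higher (8 genes) and the dark blue point as lower (SFRP1), pale points passed with the block but not without it (4 genes), and white points passed in neither fit (32 genes).

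Among the 16 ligands, 1 rose, and the block added another. WNT3A, which signals through beta-catenin, had log2 values of 10.93, 10.43, 10.67 and 9.17 in BRE_active cells of pools 1 to 4, against 8.19, 8.56, 9.02 and 7.14 in BRE_inactive cells of the same pools. Every BRE_active array was above every BRE_inactive array, but by little, since pool 4 was lowest in both groups. The difference was 2.07 ± 0.45 (SE) with an adjusted p of 0.0612, and 0.000477 with the block. Adjusted over 1 probe set per gene, an alternative chosen after seeing the data in which 3.0% of all genes were called, it was 0.0384. Within pools 1 to 4 it was 2.74, 1.87, 1.64 and 2.03. A second WNT3A probe set, present on 4 BRE_active and 2 BRE_inactive arrays, gave 2.23 ± 0.50 (adjusted p = 0.0712, and 0.000387 with the block).

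WNT9A, a ligand known from joint and heart valve development, was dim. Its probe set read 4.43, 4.68, 4.29 and 4.03 in BRE_active cells, against 3.56, 3.53, 3.62 and 3.34 in BRE_inactive cells. The groups did not overlap, and detection was limited to 2 of the arrays, both BRE_active. The readings differed by 0.85 ± 0.13 (adjusted p = 0.0169). WNT9A was below detection on the 2 other BRE_active arrays and in BRE_inactive cells, so no least fold is given. WNT3A and WNT9A are direct neighbours among the protein-coding genes of RefSeq assembly GRCg7b, as are WNT6 and WNT10A. Neither of that pair was called (adjusted p = 0.741 and 0.844), and WNT6 was present on 1 of the 8 arrays and WNT10A on none.

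The other 14 ligands were called in neither fit, and their differences lay between -0.36 and 0.29. WNT4, a ligand of both signalling branches, was among those detected on all 8 arrays. It read 10.28, 10.17, 9.94 and 9.84 in BRE_active cells and 10.26, 10.42, 10.17 and 10.25 in BRE_inactive cells, a difference of -0.22 ± 0.11 (adjusted p = 0.425). The groups overlapped, with pool 1 equal to within 0.02. WNT5A, the classical ligand of the branch without beta-catenin, averaged 6.66 ± 0.33 in BRE_active and 6.54 ± 0.52 in BRE_inactive cells (SD, n = 4 each) and differed by 0.12 ± 0.25 (adjusted p = 0.868). Its relative WNT5B differed by -0.05 ± 0.13 (adjusted p = 0.889), and WNT11, which acts in the same branch, by 0.29 ± 0.14 (adjusted p = 0.407). WNT11 was dim and called present on 2 BRE_active arrays and 1 BRE_inactive array. WNT7A, a ligand of neural progenitors, stood between 3.77 and 4.31 in BRE_active and between 4.35 and 4.54 in BRE_inactive cells. These ranges did not overlap, yet the difference of -0.36 ± 0.12 was not called (adjusted p = 0.234), and WNT7A was called present on 1 array of each group.

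WNT2, WNT2B, WNT3, WNT8B and WNT10A were called present on none of the 8 arrays, and WNT7B, WNT8A and WNT16 on 1 each. Both WNT1 probe sets, found through the gene ID, were also called present on no array (adjusted p = 0.503 and 0.516). A probe set that is not called present gives no level of its RNA and does not show that the RNA was absent.

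**Figure D2:**
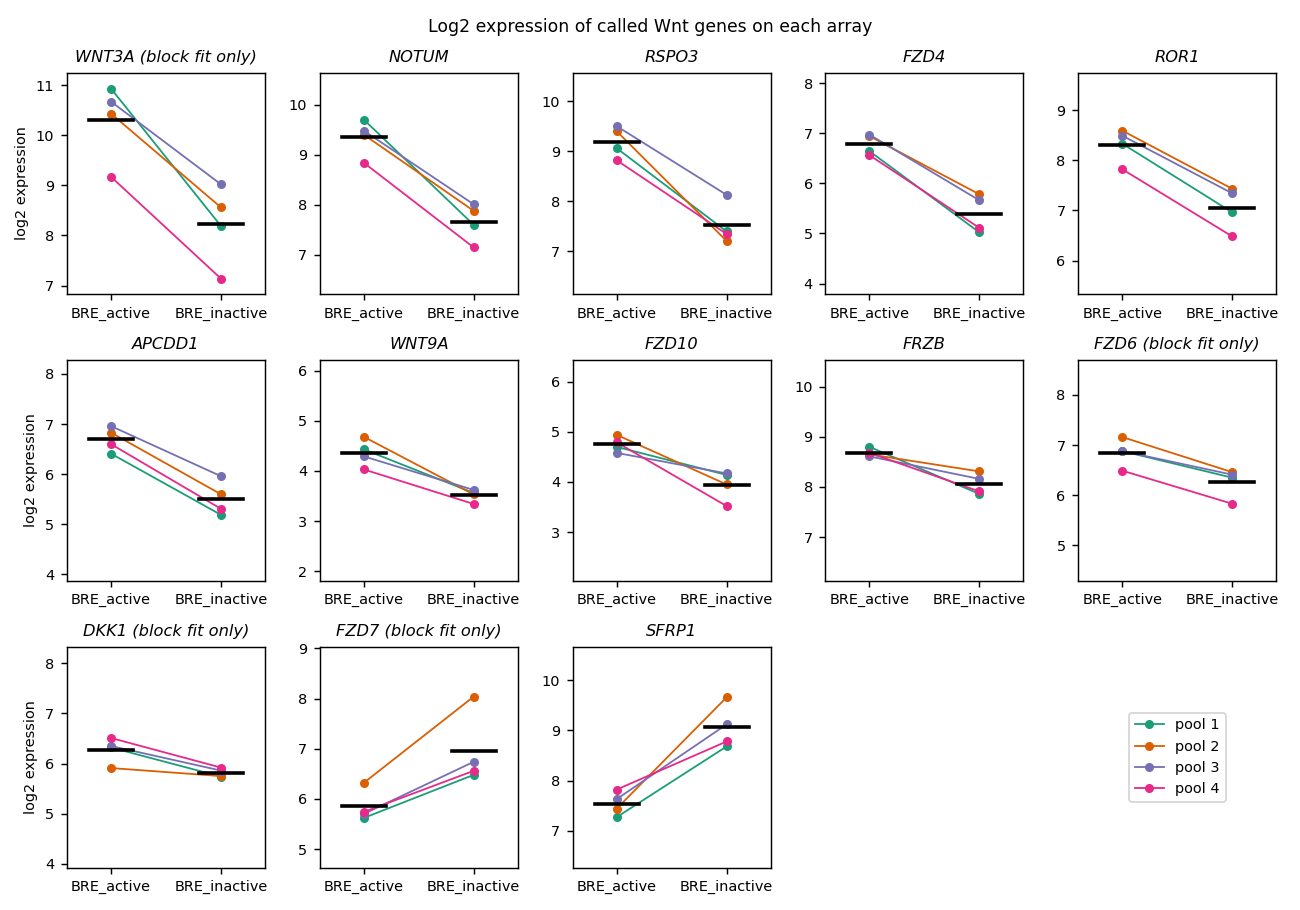
Log2 expression (y axis, the same number of log2 units in each panel) of the 13 genes called by either fit on each array, BRE_active to the left of BRE_inactive (x axis). Coloured points are arrays, lines join the 2 fractions of 1 pool, and black bars are group means. WNT3A is higher in BRE_active in all 4 pools, with pool 4 lowest at 9.17 in BRE_active and 7.14 in BRE_inactive cells.

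Of the 10 frizzled receptors, 2 rose and 8 were not called, and the block added 1 higher and 1 lower. FZD4, a receptor of Wnt proteins and of norrin, read 6.64, 6.94, 6.97 and 6.56 in BRE_active cells, against 5.02, 5.78, 5.66 and 5.11 in BRE_inactive cells. All 4 BRE_active arrays were above all 4 BRE_inactive arrays, and it was called present on 4 and 2 of them. The difference was 1.39 ± 0.18 (adjusted p = 0.00709). A second FZD4 probe set, detected on a single BRE_active array, did not pass (adjusted p = 0.525).

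FZD10, a beta-catenin pathway receptor found in the dorsal spinal cord, read 4.70, 4.94, 4.58 and 4.79 in BRE_active cells and 4.14, 3.95, 4.17 and 3.52 in BRE_inactive cells. The groups were apart, and the gene rose by 0.81 ± 0.15 (adjusted p = 0.0307), although by 0.56, 0.99, 0.42 and 1.27 within pools 1 to 4. Its signal was low, and it was called present on 4 BRE_active and 2 BRE_inactive arrays. FZD6, known for planar cell polarity in mouse, read 6.88, 7.16, 6.88 and 6.49 in BRE_active cells and 6.35, 6.46, 6.41 and 5.83 in BRE_inactive cells. These values were apart by a small margin, and the difference of 0.59 ± 0.17 was called with the block but not without it (adjusted p = 0.171, and 0.007 with the block). Without the block it passed when pool 4 or BRE_active 4 was left out (adjusted p = 0.0272 and 0.045). A dim FZD6 probe set, present on 3 BRE_active and 2 BRE_inactive arrays, gave 0.31 ± 0.15 (adjusted p = 0.409), and another was present on only 1 array.

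FZD7, a receptor of early embryonic and progenitor cells, was lower in BRE_active cells in every pool. It read 5.62, 6.32, 5.70 and 5.74 in BRE_active cells, against 6.48, 8.04, 6.74 and 6.56 in BRE_inactive cells. The groups did not overlap, and pool 2 was the highest in both. The difference was -1.11 ± 0.32 (adjusted p = 0.17, and 0.00477 with the block), and without pool 2 it was -0.91 (adjusted p = 0.0334). A dimmer FZD7 probe set gave -0.29 ± 0.14 (adjusted p = 0.416), and one present on 0 BRE_active arrays and 1 BRE_inactive array was not called (adjusted p = 0.391). The group named FZ-8 in the table, FZD5 by its gene ID, had 1 detected probe set, present on 3 arrays of each group. That probe set differed by -0.86 ± 0.26 (adjusted p = 0.194, and 0.0128 with the block).

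The other 6 frizzled genes were called in neither fit and differed by -0.40 to 0.36. FZD1 read 9.81, 10.08, 9.96 and 9.35 in BRE_active cells and 9.78, 10.11, 10.12 and 9.27 in BRE_inactive cells. The groups overlapped, each pool had similar values in both fractions, and the difference was -0.02 ± 0.21 (adjusted p = 0.979). FZD2 read 8.30, 8.48, 8.33 and 8.59 in BRE_active cells and 7.79, 8.48, 7.86 and 8.11 in BRE_inactive cells, with a difference of 0.36 ± 0.15 (adjusted p = 0.319). The fractions of pool 2 were equal to within 0.01, while those of the other pools differed by 0.47 to 0.50. FZD3, a receptor of axon guidance and planar polarity, differed by -0.40 ± 0.14 (adjusted p = 0.246) and FZD8 by -0.13 ± 0.24 (adjusted p = 0.84), while FZD9 and the rows with the symbol FZD5, whose gene ID had no match in the RefSeq list, were called present on no array.

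ROR1, a receptor tyrosine kinase that binds WNT5A, was the only one of the 4 co-receptors and alternative receptors that was called. It read 8.33, 8.59, 8.49 and 7.82 in BRE_active cells, against 6.96, 7.43, 7.34 and 6.48 in BRE_inactive cells. The groups were apart, with pool 4 lowest in each, and ROR1 rose by 1.26 ± 0.23 (adjusted p = 0.0287). The differences within pools, 1.37, 1.16, 1.15 and 1.34, varied less than the arrays of either group. The probe sets of its relative ROR2, of RYK and of LRP6 were called present on no array, so no level of these receptors is given. Of 3 LRP5 probe sets found by gene ID, the one with the highest mean was present on no array (adjusted p = 0.704). Another was present on 4 BRE_active and 0 BRE_inactive arrays, and its groups overlapped. It differed by 0.50 ± 0.16 and passed with the block only (adjusted p = 0.21, and 0.0447 with the block). The third was present on no array and differed by -0.05 ± 0.10 (adjusted p = 0.868).

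Of the 3 R-spondins, secreted proteins that enhance Wnt signalling, RSPO3 rose. It read 9.06, 9.40, 9.50 and 8.82 in BRE_active cells, against 7.40, 7.21, 8.13 and 7.35 in BRE_inactive cells, and no BRE_inactive array reached a BRE_active one. The difference was 1.67 ± 0.22 (adjusted p = 0.00674). A second RSPO3 probe set, detected on every BRE_active array but on 1 BRE_inactive array, also rose, by 1.32 ± 0.19 (adjusted p = 0.0105), and the remaining one was present on no array. RSPO2 was called present on 1 of the 8 arrays and RSPO1 on none (adjusted p = 0.456 and 0.94).

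The 12 inhibitors moved in both directions: 3 rose, 1 fell and 8 were not called. NOTUM, a secreted enzyme that removes the lipid from Wnt proteins and is itself a Wnt target, read 9.70, 9.40, 9.48 and 8.84 in BRE_active cells, against 7.60, 7.88, 8.01 and 7.15 in BRE_inactive cells. It rose by 1.70 ± 0.22 (adjusted p = 0.00647), and pool 4 was again lowest in both groups. APCDD1, a membrane glycoprotein that binds Wnt proteins and LRP receptors, read 6.41, 6.83, 6.96 and 6.60 in BRE_active cells and 5.19, 5.60, 5.96 and 5.31 in BRE_inactive cells. Its rise of 1.19 ± 0.18 (adjusted p = 0.0133) was close to the same in each pool, 1.22, 1.24, 1.00 and 1.28. APCDD1 was called present on 4 BRE_active and 2 BRE_inactive arrays, and its other probe set on none.

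The secreted frizzled-related proteins, which bind Wnt proteins through a frizzled-like domain, split. FRZB read 8.80, 8.65, 8.61 and 8.68 in BRE_active cells, against 7.86, 8.31, 8.16 and 7.91 in BRE_inactive cells. The BRE_active arrays lay close together above the others, and FRZB rose by 0.62 ± 0.11 (adjusted p = 0.0277), with 0.94, 0.34, 0.45 and 0.77 in pools 1 to 4. SFRP1 read 7.27, 7.44, 7.63 and 7.82 in BRE_active cells, against 8.68, 9.66, 9.12 and 8.78 in BRE_inactive cells. No BRE_active array reached the lowest BRE_inactive one, and SFRP1 fell by 1.52 ± 0.21 on the log2 scale (adjusted p = 0.00867). Within pools the difference lay between -2.22 in pool 2 and -0.96 in pool 4. Its second probe set, present on all 8 arrays, gave -1.10 ± 0.23 (adjusted p = 0.0563, and 0.0182 with the block).

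SFRP2 read 10.45, 10.65, 10.53 and 10.59 in BRE_active cells and 10.64, 11.11, 10.86 and 10.71 in BRE_inactive cells. BRE_active was lower in every pool, but the groups overlapped and the difference of -0.27 ± 0.11 was not called (adjusted p = 0.314). SFRP4 and SFRP5 were called present on no array by the probe sets with the highest means. A dimmer SFRP4 probe set, present on 3 BRE_active and 4 BRE_inactive arrays, gave -0.17 ± 0.11 (adjusted p = 0.512).

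Among the other inhibitors, DKK3, a divergent member of the Dickkopf family, read 9.34, 9.12, 9.20 and 8.97 in BRE_active cells and 8.87, 9.05, 8.99 and 8.98 in BRE_inactive cells. The groups overlapped at the BRE_active array of pool 4, and the difference of 0.19 ± 0.09 was not called (adjusted p = 0.425). The probe set that the table calls DKK1, an LRP6 antagonist, has a gene ID that RefSeq now names DKK4. It read 6.32, 5.91, 6.35 and 6.51 in BRE_active cells and 5.74, 5.75, 5.86 and 5.92 in BRE_inactive cells, with an overlap in pool 2 of BRE_active. With all arrays it passed the test with the block and not without it (adjusted p = 0.039 with the block, and 0.153 without), and it also passed without the block when BRE_active 2 was left out (adjusted p = 0.0435). It was called present on none of the 8 arrays, so no fold is given. WIF1, which binds Wnt proteins, was dim and read 3.26, 3.89, 4.80 and 4.03 in BRE_active cells and 3.21, 3.54, 3.09 and 3.40 in BRE_inactive cells. Its difference of 0.69 ± 0.27 (adjusted p = 0.305) ranged over pools between 0.05 in pool 1 and 1.72 in pool 3. KREMEN1, a DKK receptor, was called present on no array, nor was DKK2 by its probe set with the highest mean, while a second DKK2 probe set was present on 1 array of each group (adjusted p = 0.47).

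**Figure D3:**
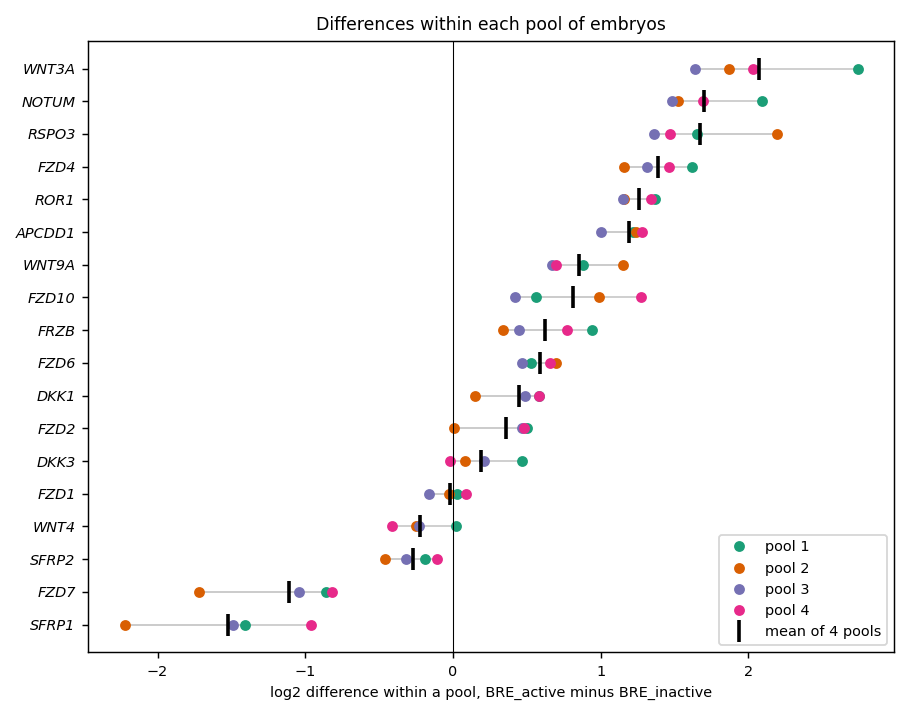
Log2 difference within each pool, BRE_active minus BRE_inactive (x axis), of the 18 genes given array by array (y axis, all but WIF1). Coloured points are the 4 pools and the black bar is their mean. WNT3A, NOTUM, RSPO3, FZD4, ROR1 and APCDD1 stay at or above 1.00 in every pool, and SFRP1 reaches -2.22 in pool 2.

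The Wnt genes differed in how far the pools lay apart. Among the 15 genes present on all 8 arrays, the SD over the arrays of a group had a median of 0.24 in BRE_active and 0.38 in BRE_inactive cells. WNT3A had the highest SD in both groups, 0.78 and 0.80, and the next were NOTUM with 0.36 in BRE_active and FZD8 with 0.57 in BRE_inactive cells. Pool 4 was the lowest of both groups for 6 of the 15 (WNT3A, ROR1, NOTUM, FZD1, FZD6 and WNT5A), while this held for 22.5% of all 6114 genes present on all 8 arrays. For the control genes actin, ef1a and gapdh, the log2 signal at the 3-prime end minus that at the 5-prime end, averaged over the 3, was also lowest in pool 4, at 2.39 in BRE_active and 2.18 in BRE_inactive cells. This mean, a sign of RNA quality, was also larger in BRE_active in every pool. In pools 1 to 3 it was 2.83, 3.20 and 3.24 in BRE_active and 2.72, 2.59 and 2.84 in BRE_inactive cells. Taken singly, ef1a and gapdh were larger in BRE_active in every pool. Actin was smaller in BRE_active in pools 1 and 4 (3.58 against 3.82, and 3.00 against 3.09). The part of RNA quality, or of the number of sorted cells, in the differences between the groups, and between pools, was not tested.

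Several probe sets stood for 16 of the 45 genes, which added 22 probe sets to the 45. One of the 22, for RSPO3, was called by itself and 3 were called with the block, those of RSPO3, WNT3A and SFRP1, each in the direction of the brighter probe set of that gene. Of all probe sets, 1.34% were called, and 5.61% with the block. Of the 22, 11 were called present on no array. FZD4 and APCDD1 rested on 1 detected probe set, as their others were present on at most 1 array. NOTUM, ROR1, FRZB, FZD10 and WNT9A had only 1 probe set each.

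**Figure D4:**
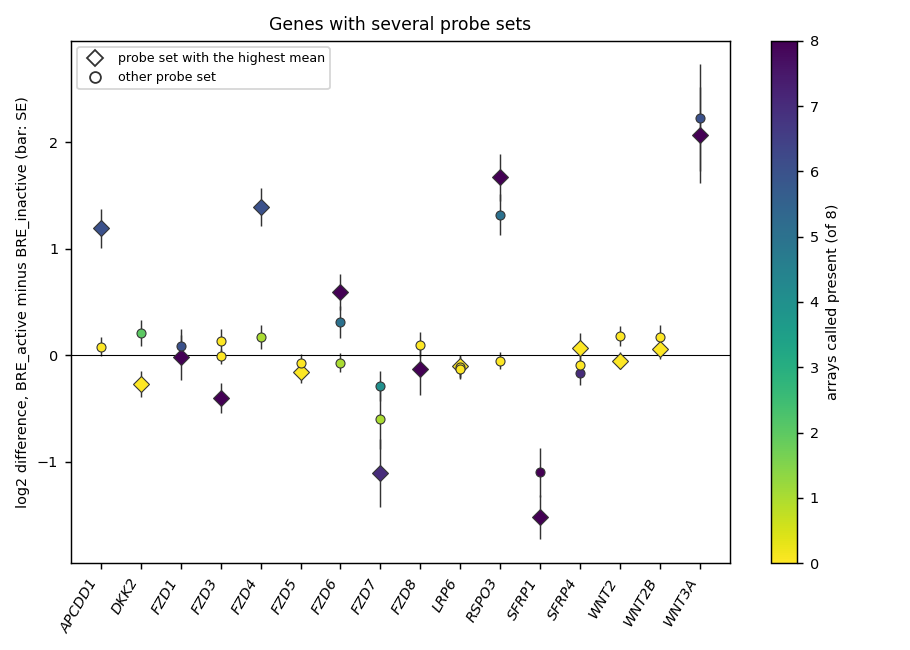
Log2 difference, BRE_active minus BRE_inactive, with the SE of the fit (y axis), for every probe set of the 16 genes with more than 1 (x axis). Diamonds are the probe sets with the highest mean, circles the others, and the colour gives how many of the 8 arrays called the probe set present. Both WNT3A probe sets lie above 2 and both SFRP1 probe sets below -1, while the second probe sets of FZD4 and APCDD1 lie near 0 and were present on 1 array and on none.

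Outside the ligand and receptor families, 58 of 68 listed pathway genes were measured, and 2 rose and 0 fell (8 higher and 3 lower with the block). Over all genes, 1.55% were higher and 0.657% lower, and with the block 4.91% and 2.55%. DACT2, an intracellular Wnt modulator named in the study's title, rose by 1.70 ± 0.22 (adjusted p = 0.00707), and SNAI2, a crest gene that is also a Wnt target, by 2.23 ± 0.33 (adjusted p = 0.013). Of the 11 measured genes for secretion and the cell surface, 0 were called without the block, and 3 (LGR5, LGR6 and GPC6) were present on no array. WLS, which carries Wnt proteins to the surface, differed by 0.40 ± 0.18 (adjusted p = 0.349, and 0.0356 with the block). LGR4, an R-spondin receptor, averaged 6.02 in BRE_active and 6.61 in BRE_inactive cells (adjusted p = 0.275, and 0.0186 with the block). SULF1, which trims sulphate from heparan sulphate, differed by -1.20 ± 0.29 (adjusted p = 0.0967, and 0.00315 with the block).

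Of the 24 measured intracellular genes, DACT2 was the one called. DACT1 was present on no array (adjusted p = 0.354), as were TCF7, BCL9L and NKD1. The feedback gene AXIN2 averaged 9.30 in BRE_active and 8.54 in BRE_inactive cells (adjusted p = 0.245, and 0.0167 with the block), and the corepressor TLE4 differed by -0.85 ± 0.21 (adjusted p = 0.102, and 0.0048 with the block). CTNNB1, which encodes beta-catenin, differed by 0.12 ± 0.09 (adjusted p = 0.624). Among 13 planar polarity and related genes 0 were called without the block. JUN and MAPK9 were higher with it, by 0.57 ± 0.15 and 0.55 ± 0.17 (adjusted p = 0.0061 and 0.0206 with the block). Present on no array were 7 of the 13: VANGL1, VANGL2, CELSR1, CELSR3, DAAM1, MAPK8 and NFATC1. Of 16 measured Wnt target genes SNAI2 rose. AXIN2, MYC and TBXT were called as higher once the block was added (adjusted p = 0.0167, 0.0246 and 0.000784 with the block). The 5 targets TCF7, CDX1, LGR5, TBX6 and NKD1 were present on no array. MYC also passed without the block when adjusted over 1 probe set per gene (adjusted p = 0.0329, against 0.0536 over all probe sets).

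Markers of neural tube regions and of cell types were read on the same arrays. Over all genes, 2.21% were called, and 7.46% with the block. Of 8 neural crest markers, 6 rose (8 with the block), and the list's mean log2 value lay between 8.20 and 9.06 on BRE_active and between 6.23 and 7.44 on BRE_inactive arrays. SOX9, called with the block only, was present on 1 BRE_active and 0 BRE_inactive arrays. Of 7 markers of dorsal neural tube and roof plate, 3 rose (5 with the block), with list means of 7.99 to 8.57 on BRE_active and 7.27 to 7.66 on BRE_inactive arrays, while ZIC2 and BMP4 were present on no array. Of 5 ventral markers, 4 fell (4 with the block), with list means of 5.54 to 6.59 on BRE_active and 7.56 to 8.05 on BRE_inactive arrays, and SHH was present on no array. The neural tube markers SOX1, SOX2, SOX3, PAX6 and CDH2 were detected in both groups, 2 of the 5 fell (3 with the block), and their mean was 7.50 to 7.83 on BRE_active and 8.18 to 8.89 on BRE_inactive arrays. Of 5 neuron markers, 3 fell (4 with the block), with list means of 6.65 to 7.09 on BRE_active and 7.47 to 8.21 on BRE_inactive arrays.

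Of 7 red blood cell genes, 6 fell (7 with the block), and the list mean was 6.43 to 9.56 on BRE_active and 11.07 to 13.05 on BRE_inactive arrays, with SLC4A1 present on no BRE_active array. Limma called 0 of 7 somite and mesoderm, 0 of 5 surface ectoderm and 0 of 3 endothelial markers without the block, and with it called KDR, an endothelial receptor, as higher (adjusted p = 0.0339) and none of the others in these lists. The mean of the mesoderm list was 5.28 to 6.70 on BRE_active and 5.47 to 6.05 on BRE_inactive arrays. That of surface ectoderm was 5.72 to 6.56 on BRE_active and 6.23 to 6.78 on BRE_inactive arrays, and that of endothelium 5.53 to 6.61 on BRE_active and 5.05 to 5.39 on BRE_inactive arrays. In the mesoderm list, FOXC2, PRRX1, TWIST1 and MEOX2 differed by -0.33, -0.31, -0.53 and -0.05 in pool 1. In pools 2 to 4 the same genes were higher in BRE_active, by 0.60 to 1.71. MEOX1 was higher in every pool, by 0.20 to 1.44, while TCF15 and TBX6 stayed between -0.22 and 0.17. The endothelial CDH5 differed by -0.91 in pool 1 and by 1.32 to 1.78 in pools 2 to 4. PECAM1 went from 2.05 in pool 1 to -0.21 in pool 4. TBX6 and TFAP2C were present on no array. The part of these cell types in the differences of the Wnt genes was not tested.

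The calls depended on the arrays included. Without pool 1, limma called 0 of the 45 genes. In that fit 21 of the 45 had an unadjusted p under 0.05. The share over all genes was not counted, so these 21 cannot be set against a background. With all arrays, 19 of the 45 and 2251 of all 13249 genes had such a p. Without pool 2 limma called FZD4, SFRP1 and FZD7, and without pool 3 RSPO3 and APCDD1. Without pool 4 it called 10, which included WNT3A (adjusted p = 0.00177) and FZD6 (adjusted p = 0.0272) but not FRZB (adjusted p = 0.051). Over all 13249 genes, 64, 75, 54 and 596 were called without pools 1, 2, 3 and 4, against 293 with all arrays. With single arrays left out the number of Wnt genes was 4 (BRE_active 3), 5 (BRE_active 1 or BRE_inactive 1), 6 (BRE_active 2), 8 (BRE_inactive 2, 3 or 4) and 11 (BRE_active 4). Over all genes it lay between 138 (BRE_active 3) and 644 (BRE_active 4). RSPO3, FZD4, NOTUM and SFRP1 were called in all 8 of these single-array fits.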

How the data were processed

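Sorted cells were measured on 8 Affymetrix chicken arrays, per the labels. The authors deposited log2 expression values for 38535 probe sets with present, marginal or absent letters, a log2 difference and an adjusted p-value. How they were normalized and summarised, the build and the test behind the deposited p-value: not given in the sources used here. Array medians were 4.24 to 4.32, and array pairs correlated at 0.974 to 0.996. The second deposited set of log2 values was equal within 5e-09.

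After removal of 96 control probe sets, group was the single term of a limma model (version 3.58.1, R 4.3.3, lmFit then eBayes) that was checked on simulated data. The simulated arrays had independent noise and no pool effect, so that check does not cover the pairing of arrays by pool. P-values were adjusted by Benjamini-Hochberg over the 38439 probe sets left, with a threshold of 0.05. Differences are BRE_active minus BRE_inactive. Symbols were updated by gene ID in RefSeq's GRCg7b gene list, where 22925 of 26142 IDs on probe sets and 44 of the 45 members were found. Members and lists were chosen with earlier results of these data known. Genes given array by array were those called in either fit, those with the highest means of each role (2 ligands, 2 receptors, 2 modulators) and those whose probe sets differed in call, and WIF1 was added after its values were seen.

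Pool numbers pair the arrays by design, since equal numbers mean 1 set of embryos. The 2 arrays of pools 1, 2, 3 and 4 deviated from their group means with correlations of -0.141, 0.203, 0.498 and 0.584 (consensus 0.223). Alternatives were the block, quantile normalization, filters on dim probe sets, other probe sets or variance models, and arrays left out. No sequences of these genes were used here, and promoter motifs were not searched.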

Additional observations from a re-analysis of the deposited data

Results flagged for a closer look

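FZD7 was set apart by pool 2 in both groups. In BRE_active cells the array of pool 2 read 6.32, with the next highest at 5.74, and in BRE_inactive cells it read 8.04, with the next highest at 6.74, so that the gap took up 0.832 and 0.833 of the group's whole range, above Dixon's critical value for 4 samples. Of 36 groups tested (18 genes, 2 groups each) these 2 were so far apart, and chance gives such a gap in about 1 of 20 groups.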

How the results depend on the processing

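The 9 genes called without the block kept their sign under every alternative run. Since the groups of these genes did not overlap, leaving out arrays could not change their sign. Their differences ranged from 1.08 to 1.34 for APCDD1, 0.52 to 0.72 for FRZB, 0.66 to 0.94 for FZD10, 1.26 to 1.52 for FZD4, 1.53 to 1.87 for NOTUM, 1.07 to 1.42 for ROR1, 1.50 to 1.87 for RSPO3, -1.70 to -1.29 for SFRP1 and 0.74 to 0.96 for WNT9A. Their highest adjusted p ranged from 0.0635 (FZD4) to 0.242 (ROR1), each with arrays left out. Of 19 alternatives, the call was lost in 10 for FRZB, 8 for FZD10, 7 for ROR1, 4 for APCDD1 and 3 for NOTUM. It was lost in 2 each for FZD4, RSPO3 and SFRP1, and in 6 of 17 for WNT9A. WNT3A ranged from 1.71 to 2.45 with adjusted p of 0.000477 to 0.374. With all arrays it passed the threshold with the pool as a block, with either filter on dim probe sets and with trended and robust variances (adjusted p = 0.0491). It also passed when the adjustment ran over 1 probe set per gene, a choice made after seeing the data (adjusted p = 0.0384). With arrays left out it passed only without pool 4 or BRE_active 4 (adjusted p = 0.00177 and 0.00926).

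The number of Wnt genes called was 9, 13 with the replicate block, 9 or 10 under the other settings with all arrays, and 0 to 11 with a pool or an array left out. WNT9A did not pass either filter on dim probe sets. Over all genes 293 were called, 988 with the block, 397 with the adjustment over 1 probe set per gene, and 54 to 644 with a pool or an array left out. Over all probe sets 517 were called, 2156 with the block and 77 to 1419 with a pool or an array left out. The block changed the call of 4 of the 18 genes given array by array (WNT3A, FZD6, FZD7 and DKK1) and of no other of them. FZD1, called under no alternative, ranged from -0.20 to 0.13 with arrays left out and changed sign without pool 3 (0.03), BRE_active 4 (0.13), BRE_inactive 2 (0.08) and BRE_inactive 3 (0.08). Arrays left out mean fewer samples, and no other cause of a lost call was tested. The number of arrays, and for dim probe sets the signal over background, limits the precision.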
